A study of Mus musculus with 40 samples.

Results

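Collagens are the triple-helical proteins that give connective tissue and basement membranes their strength. The collagen genes described here are the protein-coding genes whose symbol is Col, a number, a and a number, and 44 such genes were found among the 28467 genes of the bulk table. All 44 were also among the 32285 genes of the nucleus table. They were grouped as 11 fibrillar genes, 8 basement membrane genes and 25 others.

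Samples came from right kidneys of male C57BL/6 mice aged 8-12 weeks. The nephrectomy group had lost the left kidney (UNx, unilateral nephrectomy), and the control group had had a sham operation. Bulk RNA of kidney cross sections was sequenced 24, 48 and 72 h after the operation, from 6 sham and 6 UNx mice per time point. RNA of single nuclei was sequenced at 24 h from 2 sham and 2 UNx mice not used for bulk RNA, and gave 16500 nuclei with cell classes named by the authors. No transgene or mutation is given in the labels for either group.

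Fibrillar collagens such as types I, III and V form the fibrils of the interstitium and are made mainly by fibroblasts. Type IV collagen is the network of basement membranes. Its chains assemble into different trimers: Col4a1 with Col4a2 in most basement membranes, Col4a3 with Col4a4 and Col4a5 in the mature glomerular filter and parts of the tubule, and Col4a5 with Col4a6 in other epithelial basement membranes. The genes of each of these chain pairs lie head to head on 1 chromosome. In the GENCODE M21 annotation (build GRCm38), Col4a3 and Col4a4 were 71 bases apart and Col4a5 and Col4a6 1308 bases apart.

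The 250 bases before the RefSeq start of 4 genes are shown. In bulk RNA, Col1a2 and Col3a1 were both called higher at 24 h, and the neighbours Col4a5 and Col4a6 both lower at 48 h. The Col4a6 call was kept in 7 of the 12 fits that each left out 1 library. Whether these sequences bear on the changes was not tested. The sequences are from RefSeq (build GRCm38.p6), which had a promoter entry for 35 of the 44 genes. Capitals mark the CCAAT motif, the GGGCGG motif and the TATAA motif, searched on both strands. Windows are chr6:4505368-4505617 (plus strand), chr1:45311288-45311537 (plus), chrX:141475169-141475418 (plus) and chrX:141474077-141474326 (minus), in the order shown. GENCODE M21 places the start elsewhere for some: Col1a2 begins at 4504814 there, upstream of the whole printed window, and Col4a5 at 141475385, inside it.
Col1a2: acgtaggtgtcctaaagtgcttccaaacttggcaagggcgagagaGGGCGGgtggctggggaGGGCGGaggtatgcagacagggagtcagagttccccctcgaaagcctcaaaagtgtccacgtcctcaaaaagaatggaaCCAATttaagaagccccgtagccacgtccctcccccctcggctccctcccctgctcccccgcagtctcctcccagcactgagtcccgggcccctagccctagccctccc
Col3a1: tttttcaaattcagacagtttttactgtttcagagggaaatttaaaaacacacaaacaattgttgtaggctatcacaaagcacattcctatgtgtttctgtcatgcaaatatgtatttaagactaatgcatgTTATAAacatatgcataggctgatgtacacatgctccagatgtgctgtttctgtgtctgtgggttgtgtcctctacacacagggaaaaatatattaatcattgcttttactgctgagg
Col4a5: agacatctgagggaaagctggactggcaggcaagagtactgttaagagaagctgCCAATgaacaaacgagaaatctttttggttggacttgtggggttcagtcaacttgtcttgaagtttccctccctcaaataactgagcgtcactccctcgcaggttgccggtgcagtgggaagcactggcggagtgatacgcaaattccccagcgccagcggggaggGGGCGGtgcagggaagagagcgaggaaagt
Col4a6: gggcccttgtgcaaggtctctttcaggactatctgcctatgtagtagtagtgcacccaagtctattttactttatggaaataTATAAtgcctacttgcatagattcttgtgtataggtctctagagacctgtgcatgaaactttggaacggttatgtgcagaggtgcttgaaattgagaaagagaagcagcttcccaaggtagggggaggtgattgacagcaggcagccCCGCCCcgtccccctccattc
The Col1a2 window held 1 CCAAT and 2 GGGCGG matches and no TATAA. The Col3a1 window held only TATAA, with 2 overlapping matches on opposite strands. The Col4a5 window held 1 CCAAT and 1 GGGCGG, and that of Col4a6 1 TATAA and 1 GGGCGG read on the other strand. Of all 32851 promoter windows of this length, 33.8% held CCAAT, 32.7% GGGCGG and 22.8% TATAA. Bases G and C made up 62.0% of the Col1a2 window and 35.2% of that of Col3a1, against a median of 52.4% over all windows.

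Bulk values are CPM, a gene's count relative to the size of its library after scaling with TMM factors. Libraries held 14868494 to 24108587 estimated counts. Labels put all 24 h libraries in batch 1 and all later ones in batch 2, so time and batch cannot be told apart between 24 h and later times, while sham and UNx of a time point share a batch. At 48 h, UNx replicates 1 to 5 stood apart from replicate 6 and the shams of that time. Mitochondrially encoded genes took up to 26.4% of counts in this UNx group, 15.2% in its replicate 6, and at most 15.5% in the 48 h shams. The 24 h shams, of batch 1, had 23.5 to 26.7%. In replicates 1 to 5 an effect of UNx at 48 h cannot be told apart from this split. The same holds for differences from other times. A profile score built from 271 pseudogenes, which sets the 24 h shams near 1 and the later shams near 0, ran from 0.674 to 0.884 in the 24 h UNx libraries and up to 0.717 in the 48 h UNx libraries. In bulk RNA, fewer cells of a type and less RNA per cell cannot be told apart.

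Levels between genes were compared as CPM per kb of the longest transcript, averaged over the sham groups of the 3 time points. The 5 highest collagen genes were all of the basement membrane: Col4a1 at 42.9, Col4a3 at 40.5, Col18a1 at 34.5, Col4a2 at 33.3 and Col4a4 at 28.8. Their ranges over the 18 sham libraries overlapped (31.3 to 52.0 for Col4a1 and 20.9 to 51.0 for Col4a3). Col1a2 and Col3a1 followed at 9.25 and 9.07 CPM per kb, then Col4a5 at 8.60. Col4a5 thus stood well below Col4a3 and Col4a4, the chains it assembles with. For 13 genes no bulk comparison passed the filter on low counts in any single time point, among them the cartilage collagens Col2a1 and Col10a1, whose highest value in any of the 36 libraries was 0.137 and 0.0508 CPM.

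At 24 h, 4 collagen genes were higher after UNx and none was lower: Col4a5, Col1a2, Col3a1 and Col6a2. They were 4 of 29 collagen genes tested, when 14.2% of all 14104 genes tested were called higher 13.1% lower and 27.3% in either direction (edgeR quasi-likelihood test, Benjamini-Hochberg adjusted p under 0.05 over all genes). The share of collagen genes called higher was thus close to that of all genes. The median log2 fold change was 0.17 over the tested collagen genes and 0.01 over all genes, and 23 of the 29 values were positive, against 50.8% of all genes. All 7 tested fibrillar genes had positive values, with a median of 0.27, and 2 were called. The summed level of the fibrillar genes was 126 to 185 CPM in sham and 177 to 266 CPM in UNx. In the basement membrane group 7 of 8 were positive, with a median of 0.09, and 1 was called. Without sham replicate 1, 9 collagen genes were called higher, and the share of all genes called in that fit is not given here. With the profile score as a covariate 0 were called. The score was 0.958 to 1.04 in sham and 0.674 to 0.884 in UNx. That fit can therefore hardly separate an effect of UNx from the score.

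Col1a2 encodes the second chain of type I collagen. Its level was lowest at 14.5, with a median of 24.5 and a highest value of 31.0 CPM in sham, and 27.6, 34.7 and 55.6 CPM in UNx. All 6 UNx kidneys lay above the sham mean, and the groups overlapped between 27.6 and 31.0 CPM. The means were 22.8 ± 6.20 and 37.2 ± 10.1 CPM (SD, n = 6 each), a log2 fold change of 0.70 ± 0.19 (SE; edgeR adjusted p = 0.0116). With the profile score as a covariate it was -0.24 ± 0.42 (SE; edgeR adjusted p = 0.951). Col3a1, the only chain of type III collagen, was at 25.5 ± 7.18 CPM in sham and 43.8 ± 16.8 CPM in UNx (SD, n = 6 each), a log2 fold change of 0.78 ± 0.22 (SE; edgeR adjusted p = 0.0150). Col1a1, which encodes the other chain of type I collagen, was at 13.9 ± 4.28 and 20.5 ± 10.4 CPM (SD, n = 6 each; log2 fold change 0.56, edgeR adjusted p = 0.118) and was not called.

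UNx replicate 4 was the highest library of the group in all of these genes, with 41.5 CPM of Col1a1 and 77.8 CPM of Col3a1, where the other 5 UNx kidneys ran from 13.9 to 17.9 and from 33.4 to 40.1 CPM. The same library had summed fibroblast markers (7 genes) of 262.8 CPM and summed adipocyte markers (4 genes) of 594.7 CPM. In the other UNx libraries these sums were at most 105.1 and 30.6 CPM, and in sham at most 98.6 and 26.9 CPM. Their part in the result was tested no further than by leaving this library out. Without it Col1a2 and Col3a1 stayed called (0.55, edgeR adjusted p = 0.0218, and 0.54, edgeR adjusted p = 0.0201), while Col1a1 had 0.23 and Col6a2 was no longer called (0.33, edgeR adjusted p = 0.106). No fibroblast marker of the 5 tested was called at 24 h, with a median log2 fold change of 0.55. Of 6 mural markers 2 were called higher, when 14.2% of all genes tested were, with a median of 0.31. Summed mural markers were 103 to 144 CPM in sham and 119 to 229 CPM in UNx. The part of these markers in the collagen values was not tested.

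Col4a5, the chain shared by both epithelial type IV trimers, had the lowest p of the collagen genes at 24 h. The 6 sham kidneys had 51.7, 48.2, 39.4, 34.3, 36.5 and 38.6 CPM, and the 6 UNx kidneys 54.5, 55.2, 56.3, 53.7, 51.5 and 57.1 CPM. Only the lowest UNx kidney lay below the highest sham kidney. The log2 fold change was 0.40 ± 0.09 (SE; edgeR adjusted p = 0.00388), and the call held without any 1 library. Its partner chains did not pass the test: Col4a3 had 0.08 (edgeR adjusted p = 0.481) and Col4a4 0.03 (edgeR adjusted p = 0.729), and Col4a6 had 0.32 (edgeR adjusted p = 0.323). Col4a1 and Col4a2, the ubiquitous chains, had 0.19 (edgeR adjusted p = 0.0997) and -0.02 (edgeR adjusted p = 0.853).

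Among the other collagens, the type VI chains form beaded filaments around cells. Col6a2 went from 9.45 ± 2.41 CPM in sham to 13.1 ± 3.04 CPM in UNx (SD, n = 6 each; log2 fold change 0.47 ± 0.17 SE, edgeR adjusted p = 0.0477), a call kept in 4 of the 12 fits that each left out 1 library. Col6a1 (0.37, edgeR adjusted p = 0.0562) and Col6a3 (0.27, edgeR adjusted p = 0.168) were not called. The basement membrane collagens Col15a1 and Col18a1 had log2 fold changes of 0.11 and 0.04, neither called (edgeR adjusted p = 0.571 and 0.741).

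**Figure D1:**
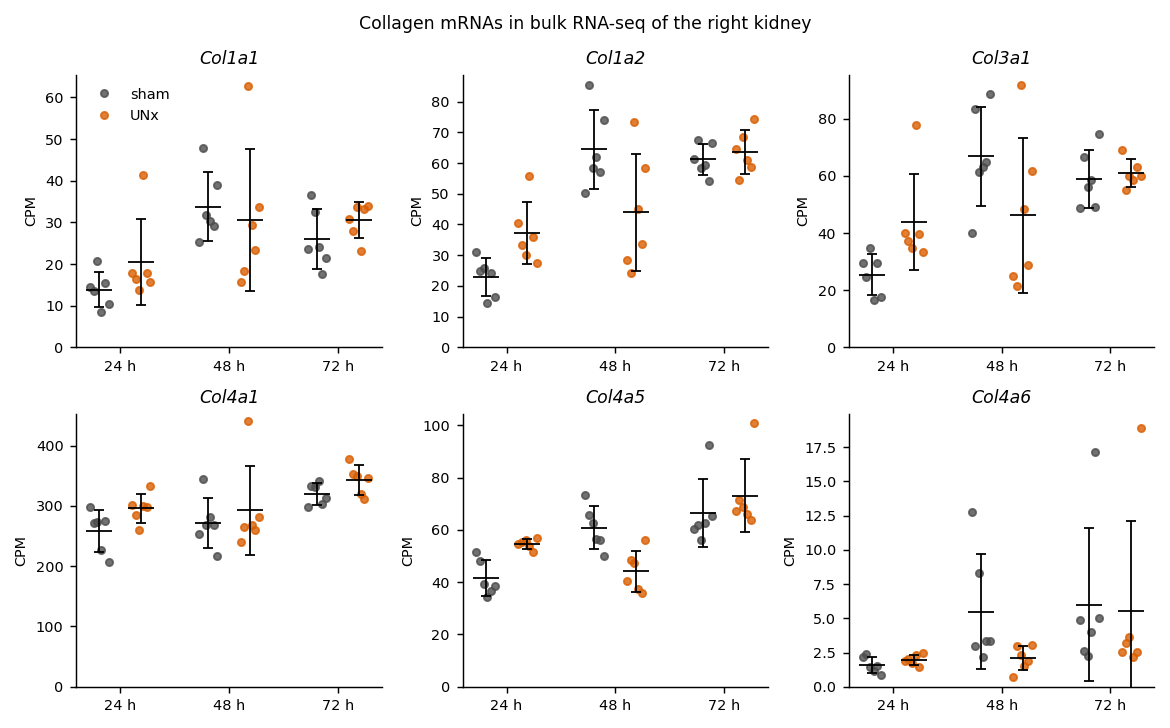
Bulk level in CPM (linear axis from 0) of 6 collagen genes in every sham (grey) and UNx (orange) right kidney at 24, 48 and 72 h; bars are mean ± SD of 6 kidneys, with the lower bar of Col4a6 at 72 h ending below 0. UNx replicate 4 at 24 h (77.8 CPM of Col3a1) and UNx replicate 3 at 48 h (91.7 CPM of Col3a1) sit above the rest of their groups.

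At 48 h, 3 collagen genes were lower after UNx and none was higher: Col4a5, Col4a6 and Col12a1. They were 3 of 29 tested, when 16.0% of all 14280 genes tested were called lower, 16.9% higher and 32.9% in either direction. The collagen median log2 fold change was -0.09, beside -0.04 for all genes. With the profile score as a covariate 0 were called. The score sets all UNx kidneys but replicate 6 apart from the shams, so this fit can hardly separate UNx from the score. Without sham replicate 3 or UNx replicate 4 the count was 1.

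Col4a5 had 73.5, 65.6, 62.5, 56.7, 56.3 and 50.1 CPM in the sham kidneys and 40.4, 48.4, 47.3, 37.2, 35.7 and 56.0 CPM in the UNx kidneys. All 6 UNx kidneys were below the sham mean of 60.8 CPM, and UNx replicate 6, the library with the profile of the shams, was the highest of them. The log2 fold change was -0.46 ± 0.12 (SE; edgeR adjusted p = 0.00899). With UNx replicates 1 to 5 left out, which leaves 1 UNx kidney assumed to vary like the shams, it was -0.11 (edgeR adjusted p = 0.800).

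Col4a6 was at a low level, with 12.8, 2.94, 8.30, 2.17, 3.32 and 3.31 CPM in sham and 0.732, 2.99, 2.34, 1.52, 1.91 and 3.08 CPM in UNx. Sham replicates 1 and 3 were high and the rest of the groups overlapped. Its log2 fold change of -1.37 ± 0.44 (SE; edgeR adjusted p = 0.0298) went to -0.92 (edgeR adjusted p = 0.0774) without sham replicate 1, and the call was kept in 7 of the 12 fits that each left out 1 library. Those 2 sham libraries also had the highest summed principal cell markers of the shams, 493.3 and 520.4 CPM, against at most 271.2 CPM in the other shams of 48 h. Among the UNx kidneys of 48 h, replicate 2 had 442.5 CPM of these markers with 2.99 CPM of Col4a6. Whether the principal cell markers bear on Col4a6 was not tested. Col12a1, which binds to the surface of fibrils, was at 9.62 ± 2.27 CPM in sham and 6.88 ± 1.47 CPM in UNx (SD, n = 6 each; log2 fold change -0.48, edgeR adjusted p = 0.0385). Sham replicate 6 was highest at 13.4 CPM, and without it the log2 fold change was -0.36 (edgeR adjusted p = 0.0892). This call was kept in 4 of the 12 such fits.

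The fibrillar genes spread widely within the 48 h UNx group. Col3a1 had 25.1, 21.3, 91.7, 48.5, 29.0 and 61.8 CPM there, against 40.2 to 88.5 CPM in sham. Replicate 3 was the highest UNx library in Col1a1 (62.8 CPM), Col4a1 (441 CPM), Col4a2 (349 CPM), Col5a1, Col6a1, Col6a2, Col6a3 and Col15a1 as well. Its summed mural markers (6 genes) were 300.7 CPM, against at most 202.7 CPM in the other UNx kidneys, and its fibroblast marker sum of 114.6 CPM was the highest of the group by a small margin. Without this library 10 of the 29 tested collagen genes were called lower, among them Col1a2 (-0.76, edgeR adjusted p = 0.0153), Col3a1 (-0.84, edgeR adjusted p = 0.0315), Col6a1, Col6a3 and Col14a1. The share of all genes called lower in that fit is not given here, so this count is not particular to collagen genes. With replicate 3 kept, Col1a2 had -0.55 (edgeR adjusted p = 0.0860) and Col3a1 -0.53 (edgeR adjusted p = 0.210). Fibroblast markers were called lower at 48 h in 5 of 6 tested, when 16.0% of all genes tested were called lower. Their summed level was 71.7 to 114.6 CPM in UNx and 131.9 to 238.9 CPM in sham, without overlap. The share of all genes without overlap is not given here. Of 6 mural markers 2 were called higher at 48 h and 0 lower, when 16.9% of all genes tested were called higher. The part of the fibroblast and mural markers in the collagen values was not tested.

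Transcript length also moved with the 48 h comparison. The 2853 genes with the longest transcripts had a median log2 fold change of -0.16 and the 2854 with the shortest 0.10, and 23 of the 29 tested collagen genes were among the longest. At 24 h these medians were -0.02 and 0.03. The part of length in the collagen values was not tested.

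At 72 h no collagen gene of 31 tested was called by edgeR, when 1.71% of all 14556 genes tested were (1.21% higher and 0.502% lower). At an unadjusted p under 0.05 there were 2, Col4a3 and Col6a1, both higher, and DESeq2 and limma voom each called 0. Col4a3, the chain missing in a form of Alport syndrome, had a mean of 352 ± 48.0 CPM in sham and 415 ± 46.3 CPM in UNx (SD, n = 6 each; log2 fold change 0.24 ± 0.09 SE, edgeR adjusted p = 0.212). Col6a1 was at 18.5 ± 3.41 and 22.9 ± 3.13 CPM (SD, n = 6 each; log2 fold change 0.30, edgeR adjusted p = 0.227). In both genes all 6 UNx kidneys lay above the sham mean. The largest values of Col4a6 were in sham replicate 5 (17.2 CPM) and UNx replicate 6 (18.9 CPM), with the other kidneys at 2.17 to 5.05 CPM. The same 2 libraries were highest in Col4a5 (92.6 and 101 CPM) and in the summed principal cell markers (535.9 and 724.8 CPM). Whether these values are linked was not tested.

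**Figure D2:**
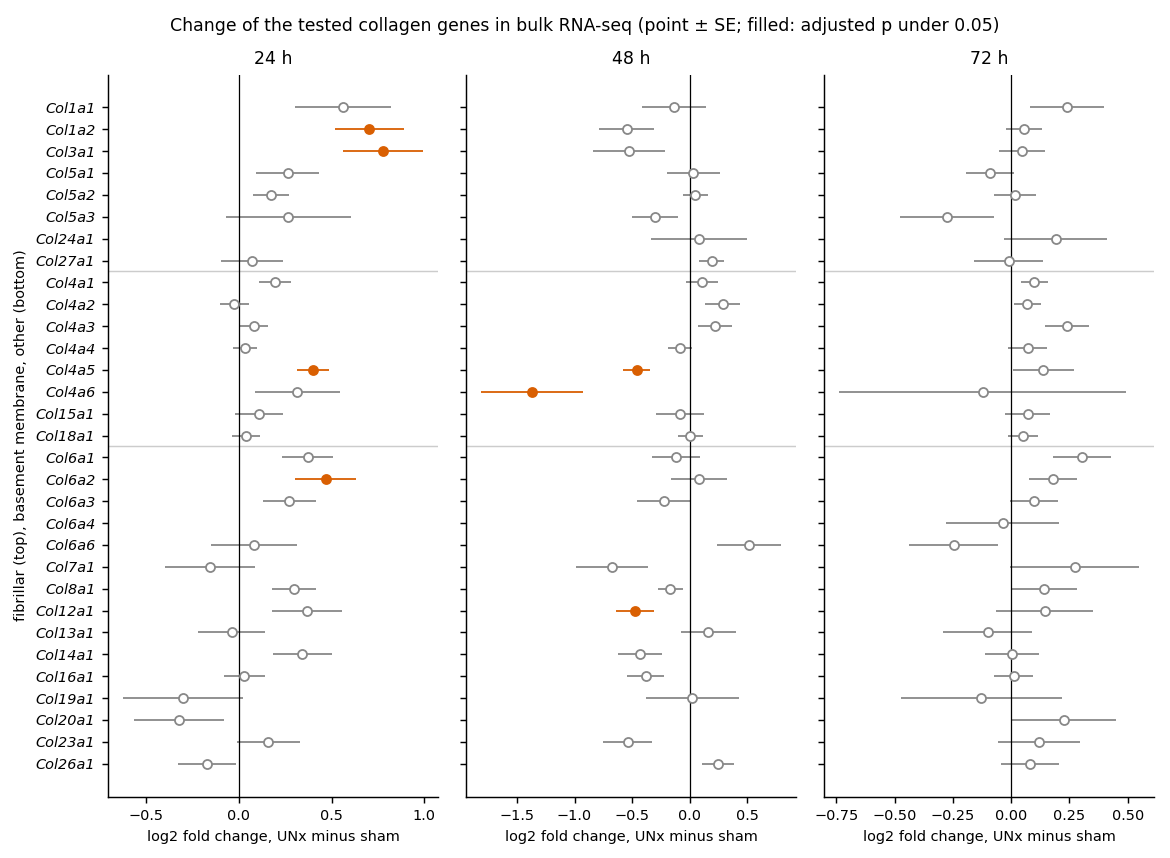
Log2 fold change of UNx minus sham (horizontal axis; scales differ between panels) with its SE for each tested collagen gene (rows, fibrillar on top, then basement membrane and other) at 24, 48 and 72 h. Filled orange points passed the test: 4 to the right of 0 at 24 h, 3 to the left at 48 h and none at 72 h.

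The effect of UNx differed between 24 h and 48 h in 5 collagen genes of 33 tested, all with a more negative value at 48 h, when 17.7% of all 15093 genes differed in that direction, 19.3% in the other and 37.0% in either. Col4a5 changed by -0.83 ± 0.17 (SE; edgeR adjusted p = 2.5e-04) between the effects at these times, Col1a2 by -1.22 ± 0.28 (SE; edgeR adjusted p = 9.1e-04) and Col3a1 by -1.27 ± 0.36 (SE; edgeR adjusted p = 0.00579). Col12a1 (-0.82) and Col14a1 (-0.74), both fibril-associated, were the others. With 48 h UNx replicates 1 to 5 removed, 1 UNx kidney remained at 48 h, so that fit cannot decide whether these differences hold. With 24 h UNx replicate 4 and 48 h UNx replicate 3 removed instead, 9 were called. The share of all genes called in that fit is not given here. Between 48 h and 72 h Col4a5 was the 1 gene called (0.58 ± 0.17 SE, edgeR adjusted p = 0.0174), against 5.86% of all genes in that direction, 8.78% in the other and 14.6% in either. With 48 h UNx replicates 1 to 5 left out, which leaves 1 UNx kidney at 48 h, the Col4a5 value was 0.25. No collagen gene differed between 24 h and 72 h, where 4.15% of all genes did (2.74% upward and 1.41% downward); 1 had an unadjusted p under 0.05.

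Genes that make, cut and bind collagen did not move as 1 group. Of the modifying enzymes and chaperones, 4 were higher and 2 lower of 18 tested at 24 h. For this and the following lists, the shares of all genes called were 14.2% higher and 13.1% lower at 24 h, 16.9% and 16.0% at 48 h, and 1.21% and 0.502% at 72 h. Serpinh1, the collagen chaperone HSP47, went from 68.3 ± 6.39 to 96.0 ± 9.78 CPM (SD, n = 6 each; log2 fold change 0.49 ± 0.07 SE, edgeR adjusted p = 4.5e-04), with P4ha1, Crtap and Sparc also higher. Plod2, a lysyl hydroxylase, was lower (-0.30, edgeR adjusted p = 0.00484), as was the prolyl hydroxylase P3h2 (-0.34, edgeR adjusted p = 0.00813). Crtap was also higher at 48 h (0.38, edgeR adjusted p = 6.5e-04) with Ppib, and P3h4 was lower (-0.72, edgeR adjusted p = 0.0308). Serpinh1 was the 1 gene of this list called at 72 h (0.32 ± 0.07 SE, edgeR adjusted p = 0.0362).

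In the processing and crosslinking list, the lysyl oxidase Loxl2 was the 1 gene of 12 called at 24 h (0.32, edgeR adjusted p = 0.0113). At 48 h Pcolce, which speeds procollagen cleavage, was higher (0.33, edgeR adjusted p = 0.00944) and the protease Tll1 lower (-0.85, edgeR adjusted p = 0.00880). None of 13 was called at 72 h by edgeR, where Tll1 had -0.59 (edgeR adjusted p = 0.0515). Of the breakdown genes, the metalloprotease inhibitor Timp3 was lower at 24 h (-0.30, edgeR adjusted p = 0.0119; 1 of 10 tested) and Mmp11 lower at 48 h (-0.64, edgeR adjusted p = 0.0128; 1 of 11). Of 7 tested receptors none was called at 24 h. At 48 h the receptor kinase Ddr1, found on epithelia, was higher (0.19, edgeR adjusted p = 0.0478), and Ddr2, found on mesenchymal cells, was lower (-0.83, edgeR adjusted p = 0.0222).

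Among 14 other basement membrane genes, Nid1 (0.36, edgeR adjusted p = 0.0241) and the laminin chain Lama4 (0.67, edgeR adjusted p = 0.0329) were higher at 24 h, and Lamb1 (-0.26, edgeR adjusted p = 0.0145) and Lama1 (-0.27, edgeR adjusted p = 0.0259) lower. At 48 h 5 were lower and none higher: Lama2, Lama4, Lamb1, Lamb2 and Agrn, with a list median of -0.26 beside -0.04 over all genes. In the TGF-beta list of 14 genes, which holds inducers of collagen transcription, Ltbp1 and Smad2 were higher at 24 h and Smad3, Smad7 and Ccn2 lower. Ccn2, a matricellular target of this pathway, had -0.57 (edgeR adjusted p = 0.0114) at 24 h and -0.86 (edgeR adjusted p = 0.0159) at 48 h, when Tgfb1 itself was higher (0.68 ± 0.16 SE, edgeR adjusted p = 0.00530). The receptors Tgfbr1 (-0.32, edgeR adjusted p = 0.00556) and Tgfbr3 (-0.59, edgeR adjusted p = 0.00413) and Ltbp1 (-0.47, edgeR adjusted p = 0.00943) were the other genes called lower at 48 h, so that Ltbp1 was higher at 24 h and lower at 48 h. No gene of the breakdown, receptor, basement membrane or TGF-beta list was called at 72 h.

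In the nuclei, each collagen gene had its own distribution over the authors' cell classes. Levels are CPM of the UMIs summed per mouse and class, as means of the 4 mice, over the 23 classes with at least 10 nuclei in every mouse. Of the 44 genes, 38 had at least 50 UMIs in all. The class labelled Fib was the highest class for 12 of these, among them Col1a1, Col1a2, Col3a1, Col5a1, Col6a1, Col6a2, Col6a3, Col14a1 and Col15a1. Of its 7 fibroblast markers (levels pooled over mice), Pdgfra was at 247, Dcn at 98.8 and Gsn at 71.4 CPM, while Lum, Dpt, Mfap5 and Pi16 were between 2.86 and 5.98 CPM. Dcn was highest in this class of all classes, and Pdgfra (389 CPM) and Gsn (108 CPM) were higher in the class labelled Per. Col1a2 in Fib was 243 and 106 CPM in the sham mice and 288 and 96.0 CPM in the UNx mice, and Col14a1 703, 268, 969 and 170 CPM in the same order. Replicate 2 of both groups was low in Fib for both genes, and the groups overlapped. Replicate 1 of each group is labelled batch 3 and replicate 2 batch 4.

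The type IV chains fell into 2 patterns. Col4a1 and Col4a2 were highest in Fib (549 and 393 CPM), PEC (471 and 329 CPM) and the endothelial class EC1 (414 and 285 CPM). The order was not the same in every mouse. In replicate 2 of both groups PEC was above Fib, with Col4a1 at 588 against 329 CPM in sham and 395 against 270 CPM in UNx. Col4a2 was at 433 against 250 CPM and 276 against 227 CPM there. Col4a3, Col4a4, Col4a5 and Col4a6 were all highest in ATL, the ascending thin limb of the loop of Henle, at 3561, 2339, 1604 and 1030 CPM. The next class was the one labelled DTL3-ATL for Col4a3 (2715 CPM) and Col4a6 (547 CPM). For Col4a4 (1709 CPM) and Col4a5 (1054 CPM) it was the class labelled Per. Col4a3 in ATL was 2617 and 2801 CPM in sham and 4766 and 4062 CPM in UNx. The groups did not overlap there, which is common by chance with 2 mice per group, and no collagen gene passed the test in this class. Col4a6 was the eighth leading gene of ATL by fold over the median class, so it is one of the genes that mark this class. The podocyte class, where these chains are best known, had 2 nuclei in 1 UNx mouse and was left out.

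Further collagen genes were highest in other classes. Col26a1 was highest in CPC at 620 CPM, above the next class CNT (165 CPM) in every mouse. Col24a1 was highest in ICB (49.4 CPM), Col18a1 in PEC (333 CPM) and Col13a1, a membrane-spanning collagen, in EC1 (25.4 CPM). Among the proximal tubule classes, Col27a1 (277 CPM) and Col8a1 (93.0 CPM) were highest in PTS1, and Col23a1 (64.3 CPM) in PTS3. The class labelled Per was the highest class for 2 of the 38 genes, and its mural markers were mixed. Pdgfrb was at 124 CPM, against 194 CPM in the class labelled JG cell and 213 CPM in Fib. The other 5 were far lower than in JG cell: Rgs5 3.69 against 222 CPM, Acta2 4.92 against 131 CPM, Myh11 16.0 against 395 CPM, Notch3 24.6 against 601 CPM and Ren1 8.00 against 647 CPM. The leading genes of the class labelled Per were Tnc, Vcan, Tnn, Ltbp1 and Spon1.

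**Figure D3:**
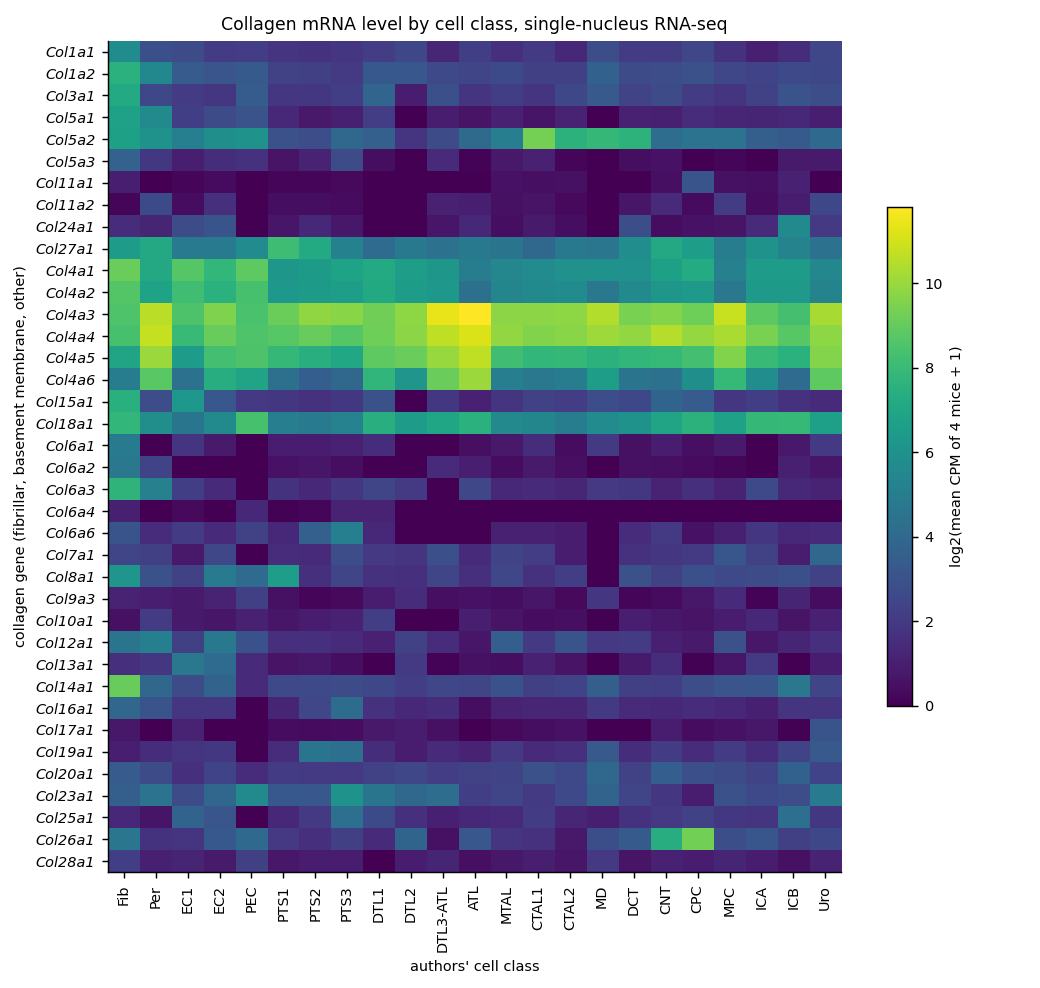
Mean level of each collagen gene with at least 50 UMIs (rows) in the 23 tested cell classes of the authors (columns), as log2 of the mean CPM of 4 mice plus 1. The fibroblast column holds the highest values of 5 of the 10 fibrillar genes (Col1a1, Col1a2, Col3a1, Col5a1 and Col5a3) and of Col6a1, Col6a2 and Col6a3, and Col4a3 to Col4a6 are brightest in ATL, up to 3561 CPM for Col4a3.

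Between UNx and sham nuclei, edgeR called no collagen gene in any class (0 of 309 pairs of gene and class tested, 7 with an unadjusted p under 0.05) and none over all nuclei (0 of 37 genes, 1 with an unadjusted p under 0.05). It called 0.0% of all genes in both. On simulated counts with 2 mice per group, this fit called almost none of the genes made to change, so these counts do not show that levels were unchanged. DESeq2 called 0 pairs in the classes, where it called 0.0314% of all tests, and 1 gene over all nuclei, Col5a2, where it called 0.125% of all genes. Since the replicate number is the labelled batch and same-numbered mice deviated together (correlation 0.81 over genes), the fit with a replicate block is given beside these counts: it called 7 pairs in the classes, where 0.721% of all tests were called, and Col5a2 over all nuclei, where 1.04% were.

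Col5a2 encodes a chain of type V collagen, which sits inside type I fibrils and sets their width. The gene lies at chr1:45374321-45503282 on the minus strand (mm10, the build of the nuclei). Over all nuclei it was at 84.7 and 90.7 CPM in the sham mice and 28.1 and 18.3 CPM in the UNx mice. Both UNx mice were below both sham mice, an order that is common by chance with 2 mice per group. The log2 fold change was -1.87 ± 0.22 (SE; edgeR adjusted p = 1.00), and with the replicate block -1.87 ± 0.16 (SE; edgeR adjusted p = 0.0174). DESeq2 gave -1.86 with an adjusted p of 1.6e-05. On simulated counts, the blocked fit over all nuclei made more false calls than its threshold allows. The gene shares 7217 bases of the same strand with the predicted gene Gm38211, and how reads there were counted is not given in the sources used here.

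The classes with the most Col5a2 were not stromal. It was highest in CTAL1, a cortical thick ascending limb class carrying Slc12a1, at 1503 and 600 CPM in sham and 310 and 137 CPM in UNx. Col5a2 was the seventh leading gene of CTAL1, so the gene is one of those that mark this class; whether it shaped the authors' clustering was not tested. Summed over CTAL1 and CTAL2, which removes the split between them, the level was 784 and 432 CPM in sham and 180 and 82.5 CPM in UNx (log2 fold change -2.17, edgeR adjusted p = 1.00; with the replicate block -2.20 ± 0.14 SE, edgeR adjusted p = 1.6e-05). This sum was chosen after seeing the data. DCT, the distal convoluted tubule, had 298 and 306 CPM in sham and 144 and 43.0 CPM in UNx (with the replicate block -1.84, edgeR adjusted p = 0.00564). In CTAL1 62 of 10282 genes were called with the block (0.603%), in CTAL2 0.0431% and in DCT 0.481%.

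With the replicate block Col5a2 was also called lower in CTAL2, MPC (0.407% of all genes called), EC1 (0.893%) and PTS3 (2.47%). On simulated counts the blocked fit of PTS3 also made more false calls than its threshold allows in some runs. Of the other classes only CTAL1 and CTAL2 were simulated. In PTS3 Col5a2 was 2.07 and 44.4 CPM in sham and 1.51 and 11.0 CPM in UNx, with replicate 2 above replicate 1 in both groups. Replicate 2 was also the higher in EC1 (16.1 and 85.5 CPM in sham, 9.79 and 20.0 CPM in UNx) and in PTS1 (1.53 and 20.4 CPM in sham, 1.15 and 3.45 CPM in UNx), and the part of free RNA in these low levels was not tested. In Fib Col5a2 was at 99.0 and 123 CPM in sham and 146 and 40.9 CPM in UNx, and the groups overlapped. They also overlapped in EC2, with 69.8 and 50.6 CPM in sham and 73.9 and 36.3 CPM in UNx (with the replicate block -0.10, not called). MTAL had 32.0 and 68.6 CPM in sham and 13.1 and 14.7 CPM in UNx (with the replicate block -1.70, edgeR adjusted p = 0.103). The class labelled Per had 84.8 and 112 CPM in sham and 21.8 and 40.0 CPM in UNx (with the replicate block -1.70, edgeR adjusted p = 0.741). The class labelled MD, second highest for this gene, had 518 and 316 CPM in sham and 92.9 and 0 CPM in UNx (with the replicate block -3.33, edgeR adjusted p = 0.114). In Per and MD no UNx mouse had more than 6.04 UMIs of Col5a2. Bulk RNA of 6 other mice per group at 24 h had Col5a2 at 26.0 ± 3.66 CPM in sham and 29.3 ± 3.50 CPM in UNx (SD, n = 6 each; log2 fold change 0.17 ± 0.10 SE, edgeR adjusted p = 0.198), the opposite sign to the nuclei. The difference between the assays was not tested.

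**Figure D4:**
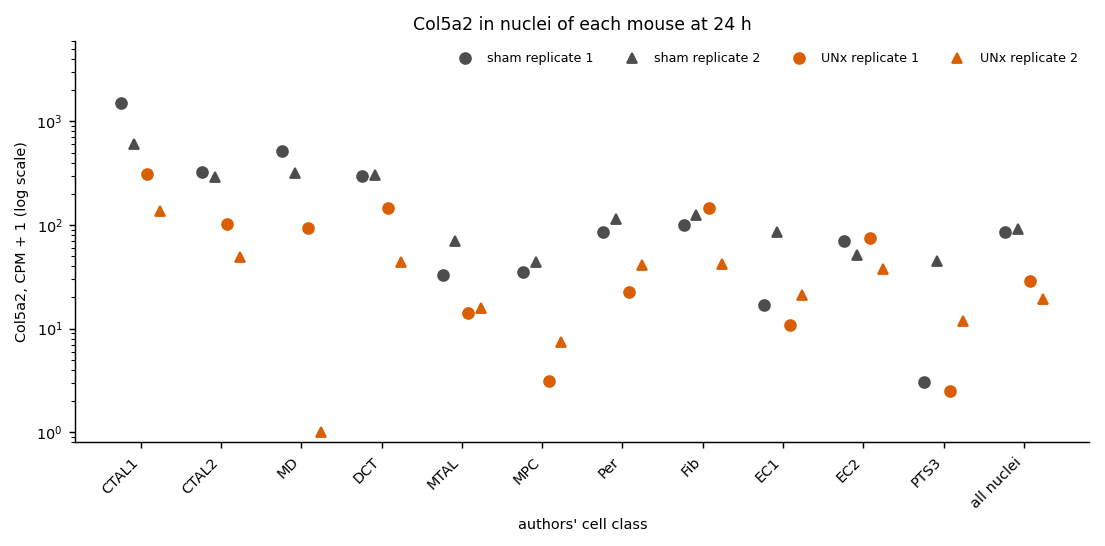
Col5a2 level (CPM plus 1, log axis) in each mouse at 24 h, for 11 of the authors' cell classes and all nuclei; circles are replicate 1, triangles replicate 2, grey sham and orange UNx. Over all nuclei both UNx mice (28.1 and 18.3 CPM) sit below both sham mice (84.7 and 90.7 CPM), while in Fib the groups overlap.

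The other pairs with the lowest p were small or uncertain. Col27a1 in PTS1 was 161 and 243 CPM in sham and 415 and 289 CPM in UNx (log2 fold change 0.87 ± 0.30 SE, edgeR adjusted p = 1.00; with the replicate block adjusted p = 0.0905). Col4a4 in PTS1 was 272 and 429 CPM in sham and 525 and 496 CPM in UNx (0.61, edgeR adjusted p = 1.00; with the replicate block adjusted p = 0.116). Col4a6 in MTAL was 43.9 and 34.4 CPM in sham and 24.7 and 24.0 CPM in UNx (-0.63, edgeR adjusted p = 1.00). Col19a1 in PTS2 was called higher with the replicate block alone (1.61, edgeR adjusted p = 0.00782, where 2.99% of all genes were called), from 15.8 and 5.20 CPM in sham and 61.2 and 9.44 CPM in UNx. Col1a2 and Col3a1, higher in bulk at 24 h, were not called in Fib nuclei in either fit.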

How the data were processed

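The authors deposited estimated counts per gene for 36 bulk libraries and estimated UMI counts for 16500 nuclei, neither normalized; per the submitters' processing notes Salmon 1.5.0 (GRCm39) and alevin (mm10) were used. Counts were rounded, the nuclei after summing per mouse and class of the authors' deposited annotation. Bulk IDs were matched to GENCODE M21. The nuclei had been filtered before deposit (lowest total 1755 UMIs); 18 barcodes were shared by libraries, and doublet treatment is not given in the sources used here. Genes were tested with edgeR 4.0.16 (filterByExpr, TMM, two-sided quasi-likelihood test) in R 4.3.3 within each time point, and for differences between time points in 1 fit of 36 libraries, and a gene was called where its p after Benjamini-Hochberg adjustment was under 0.05. Alternatives used DESeq2 1.42.0, limma 3.58.1 (voom), other filters, left-out libraries, a replicate block and the profile score as covariate. Per the labels the replicate numbers of the nuclei are batches, and the pairing check gave a correlation of 0.81; no label ties bulk replicate numbers together. Each library is 1 mouse, per the labels. Scripts were tested on simulated data. The genes, lists and tests were chosen with earlier results of these data known. Named are the collagen genes called in bulk, 16 preset ones, and in nuclei each gene's highest class and the 2 smallest p per direction; the other levels of Col5a2 and Col19a1 in nuclei were chosen after their values were seen.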

Additional observations from a re-analysis of the deposited data

Results flagged for a closer look

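In each of 108 groups of 6 kidneys (18 named collagen genes, 2 groups, 3 time points), the highest and lowest kidney was checked for a gap to the others beyond Dixon's limit of 0.625, which chance passes in about 1 of 20 groups; 21 kidneys passed. Genes of 1 library move together, so these are not independent.

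UNx replicate 4 at 24 h was far above the other UNx kidneys in Col1a1 (41.5 CPM), Col3a1 (77.8 CPM), Col5a1 (12.2 CPM), Col6a2 (19.1 CPM) and Col12a1 (12.9 CPM), and far below them in Col4a3 (327 CPM). UNx replicate 6 at 24 h was high in Col4a2 (290 CPM). UNx replicate 3 at 48 h was high in Col4a1 (441 CPM), Col4a2 (349 CPM), Col5a1 (22.0 CPM), Col6a1 (36.3 CPM), Col6a2 (28.6 CPM), Col6a3 (30.5 CPM), Col12a1 (9.81 CPM) and Col15a1 (53.3 CPM). Sham replicate 2 at 48 h was high in Col6a1 (27.9 CPM). At 72 h sham replicate 5 was high in Col4a5 (92.6 CPM) and Col4a6 (17.2 CPM), and UNx replicate 6 in Col4a5 (101 CPM), Col4a6 (18.9 CPM) and Col12a1 (19.9 CPM).

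The effect of UNx differed between 24 h and 48 h, by the test of the difference itself, in Col1a2 (-1.22), Col3a1 (-1.27), Col4a5 (-0.83), Col12a1 (-0.82) and Col14a1 (-0.74), and between 48 h and 72 h in Col4a5 (0.58), all on the log2 scale.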

How the results depend on the processing

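With the profile score as covariate, 0 collagen genes were called at 24 h and 48 h and 0 in the differences between time points, and Col1a2 at 24 h changed sign to -0.24 (edgeR adjusted p = 0.951); the score itself differs between the groups compared, and the cause was not tested. At 48 h limma voom called 6, and all 36 libraries in 1 fit called 6 (1 higher, Col4a2, and 5 lower). Leaving out UNx replicates 1 to 5, which leaves 1 UNx kidney, took Col4a5 at 48 h to -0.11. Leaving out each library in turn gave 3 to 9 collagen genes at 24 h (9 without sham replicate 1), 1 to 10 at 48 h (1 without sham replicate 3 or UNx replicate 4, 10 without UNx replicate 3) and 0 at 72 h. Of the alternatives added after seeing the data, 48 h UNx replicates 1 to 5 left out took Col4a5 to 0.25 for 48 h against 72 h. That fit holds 1 UNx kidney at 48 h. Leaving out 24 h UNx replicate 4 and 48 h UNx replicate 3 gave 9 for 24 h against 48 h and 8 for 48 h against 72 h. In the bulk the replicate block, a number with no pairing in the data (correlations of -0.29 to 0.13), gave 4 called at 24 h, 2 at 48 h and 0 at 72 h. The shares of all genes called in these bulk alternatives are not given here. In the nuclei the replicate block called 7 pairs and 1 gene over all nuclei; no filter on low counts called 2 pairs, DESeq2 1 gene over all nuclei, and leaving out each mouse 0 to 2 pairs and 0 genes over all nuclei. Col5a2 over all nuclei stayed negative in all of these settings. With both UNx mice below both sham mice, leaving out a mouse could hardly change this sign. Depth limits the genes of few UMIs and the 13 genes not tested in bulk.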
